A study of Homo sapiens with 12 samples.

Results

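Loss of EXOSC5 and loss of NUP93 were compared in U2OS cells, a human osteosarcoma line, after transcription had been shut off with triptolide. The comparison rests on 4 of the 12 libraries of the study, 2 of EXOSC5 knockout cells (EXOSC5-KO) and 2 of NUP93 knockout cells (NUP93-KO), both exposed to 1 μM triptolide for 8 h. The same knockouts without drug (4 libraries) and cells with a nontargeting guide (NONT, 2 treated and 2 untreated libraries) served as references. Cas9, the guide RNA and puromycin resistance came from 1 plasmid given by transient transfection, to NONT cells as well, so each genotype is a selected pool in which unedited cells can remain, not a clone. Each group held 2 replicates, and no source used here says whether they were separate transfections, so p-values measure only the spread between these libraries. The study chose the knockouts as a way to keep mRNA in cells that have lost RNA polymerase II.

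Triptolide binds XPB, a subunit of the general transcription factor TFIIH, and blocks the start of transcription, so that the mRNA left after some hours is what had not yet decayed. The RNA exosome is a complex that digests RNA from its 3′ end, in the nucleus and in the cytoplasm, and EXOSC5 (RRP46) is one of the core subunits of its ring. NUP93 is a scaffold protein of the nuclear pore, through which mRNA leaves the nucleus. The exosome is best known for removing processing by-products, unspliced or prematurely ended transcripts and unstable nuclear RNAs, whereas short-lived cytoplasmic mRNAs are mostly deadenylated and then degraded from either end.

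The guides are shown because they define the genotypes, with the adjoining PAM in capitals. Their letters came from the oligonucleotide list of the study and were placed by exact match on GRCh38, where each occurred at 1 site:
EXOSC5 guide: gaagttcttaccttgcaggaAGG
NUP93 guide: gaacttacaggagatccagcAGG
The EXOSC5 guide matched the plus strand of chr19:41397170-41397189. Of its 20 bases, 9 lay in coding exon 1 and 11 in intron 1 of EXOSC5, a gene of 6 exons on the minus strand, and the predicted Cas9 cut fell inside the exon, 6 bases from its edge. The NUP93 guide matched the plus strand of chr16:56748340-56748359, wholly within coding exon 2 of 22, with the predicted cut 70 bases from the exon edge.

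The targeted transcripts were examined first. EXOSC5 (ENSG00000077348) had normalised read counts of 75.2 and 102 in EXOSC5-KO under triptolide and of 289 and 323 in NUP93-KO. The 2 EXOSC5-KO libraries lay far below the others, and also below the 266 and 208 of NONT under triptolide. The log2 difference, EXOSC5-KO minus NUP93-KO on the log2(value + 1) scale used throughout, was −1.79 (SE 0.28, limma adjusted p = 0.0024). Without drug EXOSC5 stood at 216 and 148 in EXOSC5-KO and at 376 and 376 in NUP93-KO (log2 difference −1.07, limma adjusted p = 0.18). NUP93 (ENSG00000102900) had 801 and 1019 in NUP93-KO under triptolide against 1153 and 1231 in EXOSC5-KO, a difference of 0.40 (SE 0.20, limma adjusted p = 0.51) that did not pass the test, and NONT under triptolide held 1007 and 899. A frameshift in a coding exon need not change the amount of an mRNA, so the NUP93 value does not check that label. Lineage markers fitted the label of the line only in part. All 8 mesenchymal and bone markers were measured (VIM at 31394 and 31820 in EXOSC5-KO, 36951 and 38084 in NUP93-KO), and the blood marker CD3E was at 0 in the 4 libraries. Epithelial markers were present too: 4 passed the filter, KRT18 (6645 and 6408 against 5694 and 5947) among them. None of these 4 was called between the knockouts. KRT19, PTPRC and HBB were at 4.70 or less.

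The remaining mRNA pools were of similar size. Summed over genes, EXOSC5-KO held 8006624 and 8030584 and NUP93-KO 8223754 and 8791818 normalised read counts, a ratio of 0.943 (0.911 to 0.977 over the 4 pairings of libraries). Both EXOSC5-KO totals were the lower ones, but 2 against 2 libraries allow no p under 0.33, the value of the exact two-sided permutation test. NONT under triptolide held 5937102 and 4897927. The spacing of the lowest values put the depth of the 4 libraries at about 8600000 to 9800000 reads. Over the 12386 genes tested (mean of at least 10 over the 4 libraries), the median log2 difference was −0.04 (−0.08 to −0.00 over the pairings), the middle 50% of genes lay between −0.25 and 0.23, and 93.3% lay within 1 log2 unit. Mitochondrially encoded mRNAs, which nuclear transcription inhibition does not switch off, summed to 98946 and 111897 in EXOSC5-KO and 91206 and 87262 in NUP93-KO, a ratio of 1.18.

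Against this even background, 115 genes differed at a limma adjusted p under 0.05. In EXOSC5-KO 86 genes were higher (0.694% of those tested) and 29 were lower (0.234%), with no overlap between the 2 and 2 libraries in any of them. Lack of overlap adds nothing to the calls, because the same 4 libraries chose these genes. Of all genes not at 0 throughout these libraries, 20.4% were higher without overlap and 24.4% lower. At an unadjusted p under 0.05 the counts were 813 and 512. Among genes with a mean of at least 50 in either knockout and no identical row elsewhere in the table, the largest increases were in H3Y1, PCF11 and IER5L. The decreases in that set held CCN1, HMOX1, PLK2 and PPP1R15A. MYC, called lower as well, had means under 50 in both knockouts. Simulated 4-fold changes at this size were recovered in 82% (increases) and 76% (decreases), and 2-fold changes in 28%, so the counts miss many differences of modest size. Higher genes made up 74.8% of calls, and 49.6% after median-of-ratios scaling (499 higher, 508 lower), 69.1% when the libraries were set to the same total (645 and 288) and 20.5% when set to the same mitochondrial sum (92 and 357), which moved the median of all genes by −0.24. Of the 86 higher genes, 84, 84 and 78 still passed in these 3 settings, and of the 29 lower genes 27, 27 and 29. Fewer of these calls held without a single treated library: 39 and 38 of the 86 passed without EXOSC5-KO replicate 1 or 2 (45 and 50 higher in all) and 47 without either NUP93-KO replicate, and 10 to 16 of the 29 passed in these 4 fits (15 lower in all without NUP93-KO replicate 2).

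**Figure D1:**
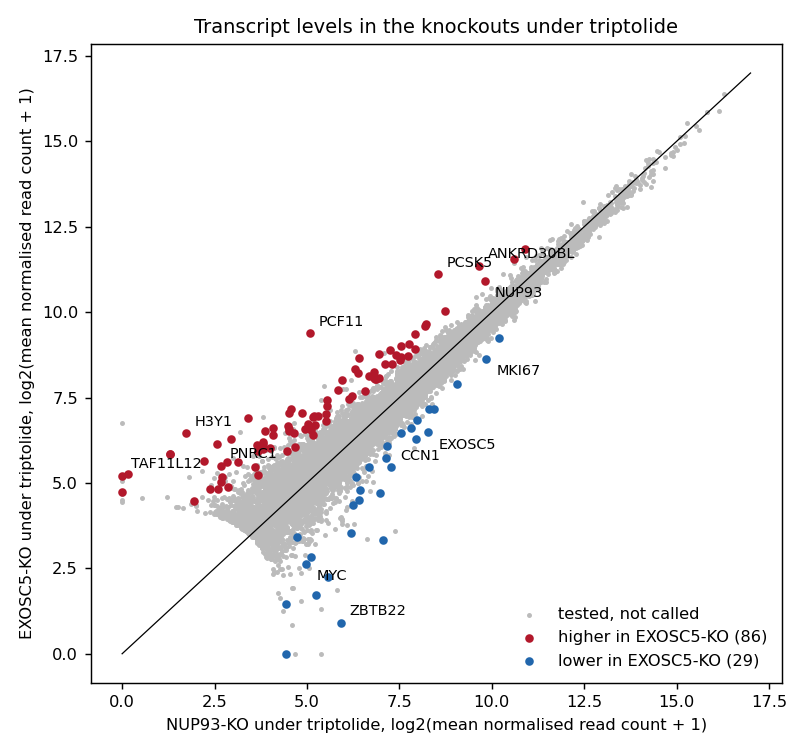
Mean normalised read count of each of the 12386 genes tested, as log2(mean + 1), in NUP93-KO (horizontal axis) and EXOSC5-KO (vertical axis) under triptolide, 2 libraries each. The line marks equal levels; most genes lie along it, 86 genes called higher in EXOSC5-KO (red) lie above it and 29 called lower (blue) below it.

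PCF11 (chr11:83156988-83187451, 16 exons), a subunit of the cleavage factor that helps cut pre-mRNA at the poly(A) site and end transcription, was at 713 and 626 in EXOSC5-KO and at 39.6 and 25.8 in NUP93-KO. Levels in EXOSC5-KO were thus 20.5-fold those in NUP93-KO, and those in NONT, 20.4 and 18.3, were at or below the NUP93-KO values. The log2 difference was 4.34 (SE 0.33, limma adjusted p = 5.3e-07), with 3.48 without drug (limma adjusted p = 1.1e-05). Other components of the 3′ end machinery were then listed, a list chosen after this value was seen. Of its 20 members, all tested, 3 were called higher (15%, PCF11 that prompted the list included, against 0.694% of all genes) and none lower, and the median was −0.04, as over all genes. The other two were RBBP6, a ubiquitin ligase of the same machinery (263 and 336 against 101 and 63.1, log2 difference 1.88, SE 0.28), and CSTF3, the scaffold of the cleavage stimulation factor (870 and 674 against 271 and 315, log2 difference 1.39, SE 0.24). Their limma adjusted p-values were 0.0014 and 0.0049, and CSTF3 missed the threshold without EXOSC5-KO replicate 1 (limma adjusted p = 0.077). CLP1, the partner of PCF11 in its complex, had 14.9 and 23.2 against 29.1 and 27.0 and was not called.

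Among the other genes with the largest increases, 2 lay in 1 cluster on chromosome 5. H3Y1 (chr5:17654868-17655849, 1 exon), a primate histone H3 variant known from the early embryo, had 97.5 and 76.6 in EXOSC5-KO and 2.61 and 1.98 in NUP93-KO, a 37.9-fold difference (log2 difference 4.74, SE 0.69, limma adjusted p = 0.0014). TAF11L12 (chr5:17610496-17611583, 1 exon), a copy of a gene for a TFIID subunit, was at 28.0 and 44.4 in EXOSC5-KO and listed at 0 in the NUP93-KO and NONT libraries under triptolide (limma adjusted p = 0.0018). TAF11L12 is outside the rule for named genes, which asked for a mean of 50, and was named after its values were seen.

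Other early embryo genes were too low for the test. Of 60 listed, 3 passed the filter, H3Y1, TAF11L12 and RFPL4A, which had 841 and 822 against 508 and 554 and was not called (log2 difference 0.65, limma adjusted p = 0.20). In the 4 treated knockout libraries 34 were at 0. Of the 26 others, the 3 included, 11 were higher in both EXOSC5-KO libraries than in both NUP93-KO libraries and 1 was lower, where 20.4% of all genes not at 0 throughout were higher in that way and 24.4% lower. Among the 11, H3Y2, RFPL4B, TAF11L12 and TAF11L14 were at 0 in both NUP93-KO libraries and entered only through EXOSC5-KO. H3Y1 and TAF11L12 had already been named from these values, and passed the filter only through EXOSC5-KO. The list was chosen with earlier results of these data known, so the tally is a description and no test. ZSCAN4, a marker of embryonic genome activation, had 6.55 and 6.59 against 1.75 and 0.995, and 71.2 and 96.9 against 1.16 and 5.00 without drug. TRIM43B had 12.17 and 13.99 against 1.74 and 0, and PRAMEF12 10.3 and 4.94 against 0.873 and 0. Without drug 32 were not at 0 throughout, of which 18 were higher in both EXOSC5-KO libraries and none was lower, where 34.0% of all such genes were higher and 11.1% lower. Several of these genes, the TAF11L, TRIM43 and PRAMEF families among them, have near-identical copies between which kallisto divides reads, so values of single members are uncertain.

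IER5L, an immediate early response gene of 1 exon, stood at 69.3 and 69.2 against 7.87 and 1.99 (log2 difference 3.77, SE 0.43), and had been at 492 and 418 against 261 and 347 without drug. It kept 15.2% of its untreated level in EXOSC5-KO, 1.62% in NUP93-KO and 1.06% in NONT. APOLD1, an endothelial early response gene, had 132 and 104 against 10.1 and 8.92 (3.49, SE 0.54). TANC2, a synaptic scaffold protein, had 111 and 43.0 against 2.23 and 11.2 (3.48, SE 0.59), so that the EXOSC5-KO libraries themselves differed more than 2-fold. KICS2, a subunit of the KICSTOR complex that restrains mTORC1, had 146 and 116 against 33.6 and 9.73 (2.76, SE 0.48), and WNT10A, a Wnt ligand, had 149 and 135 against 20.2 and 24.9 (2.60, SE 0.36). The last of the 8, GTF2H2C (67.2 and 53.8 against 1.59 and 22.1, 2.98, SE 0.65), is a near-identical copy of the gene for a TFIIH subunit and is uncertain. Limma adjusted p-values of these 6 genes were 1.3e-04 for IER5L, 0.0020 for APOLD1, 0.0043 for TANC2, 0.0049 for KICS2, 8.5e-04 for WNT10A and 0.030 for GTF2H2C. KICS2 missed the threshold without NUP93-KO replicate 2 (limma adjusted p = 0.066). GTF2H2C missed it without EXOSC5-KO replicate 1 and without NUP93-KO replicate 1 (0.092 and 0.27).

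A pair of abundant genes and a pair of decay-related genes were added after their values were seen. PCSK5, a proprotein convertase, stood at 2306 and 2122 in EXOSC5-KO against 341 and 401 in NUP93-KO (log2 difference 2.58, SE 0.24, limma adjusted p = 6.1e-06), with 163 and 149 in NONT. MAP3K20, a stress kinase that senses stalled ribosomes, had 3715 and 3668 against 1800 and 2007 (0.96, SE 0.19, limma adjusted p = 0.017), a call lost without any 1 of the treated knockout libraries (0.067 to 0.16). PNRC1, a nuclear receptor coactivator known to bind the decapping complex, had 39.7 and 49.2 against 6.62 and 4.09 (2.86, SE 0.37, limma adjusted p = 4.2e-04), and YTHDF2, a reader of methylated adenosine that recruits deadenylases, had 251 and 285 against 104 and 119 (1.26, SE 0.23, limma adjusted p = 0.0080). In each of these the EXOSC5-KO libraries were above both NUP93-KO and both NONT libraries. YTHDF2 missed the threshold without EXOSC5-KO replicate 2 (limma adjusted p = 0.090) and without NUP93-KO replicate 1 (0.073).

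**Figure D2:**
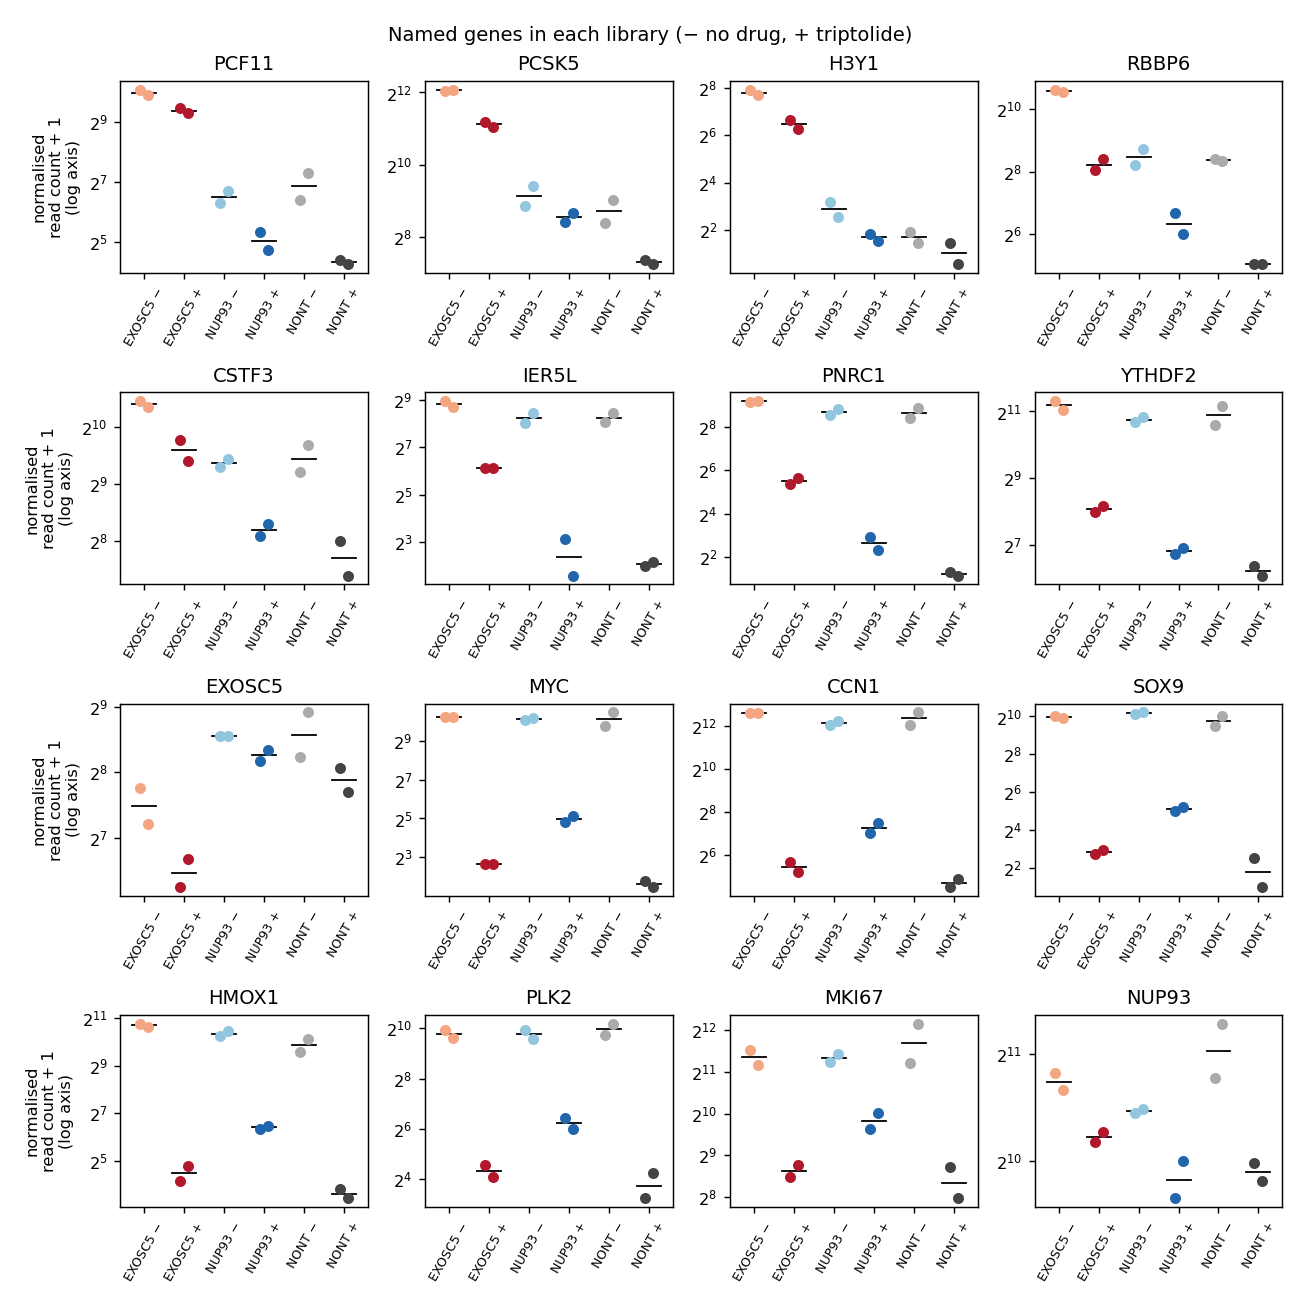
Normalised read count + 1 of 16 genes in all 12 libraries on log2 axes, without drug (−) and under triptolide (+). Points are libraries and bars the means of 2 log2 values. PCF11, PCSK5, H3Y1, RBBP6 and CSTF3 are higher in EXOSC5-KO with and without drug, while MYC, SOX9 and PLK2 lie together without drug and separate under triptolide, with NUP93-KO on top.

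The genes that were lower in EXOSC5-KO included several mRNAs that were nearly used up in all 3 genotypes. MYC, the growth-promoting transcription factor, was at 5.18 and 5.29 in EXOSC5-KO and at 27.2 and 33.6 in NUP93-KO (log2 difference −2.33, SE 0.32, limma adjusted p = 8.5e-04). NONT under triptolide stood at 2.39 and 1.74, and without drug the levels were 1236 and 1208 in EXOSC5-KO and 1083 and 1164 in NUP93-KO. MYC mRNA thus kept 0.43% of its untreated level in EXOSC5-KO, 2.71% in NUP93-KO and 0.18% in NONT. CCN1, a secreted matrix protein and YAP target, had 50.9 and 35.98 against 130 and 178 (−1.81, SE 0.25, limma adjusted p = 8.4e-04). HMOX1, heme oxygenase, had 16.6 and 26.8 against 80.8 and 86.2 (−1.93, SE 0.29, limma adjusted p = 0.0018). PLK2, a stress-induced kinase and p53 target, had 22.6 and 16.2 against 86.4 and 63.8 (−1.90, SE 0.33, limma adjusted p = 0.0054). PPP1R15A, which restarts translation after stress, had 17.4 and 3.61 against 70.4 and 75.1 (−3.0, SE 0.63, limma adjusted p = 0.022) and missed the threshold without EXOSC5-KO replicate 2 (0.17) and without NUP93-KO replicate 2 (0.056).

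The other short-lived mRNAs that the study names were not called. WEE1, a mitotic inhibitor kinase, had 10.5 and 10.2 against 14.6 and 23.1 (log2 difference −0.78, SE 0.37, limma adjusted p = 0.46), both libraries below those of NUP93-KO as for MYC. MCL1, a survival factor, had 50.9 and 37.4 against 55.6 and 27.7 (0.15, SE 0.32, limma adjusted p = 0.92), with overlapping libraries. JUN was below the filter, at 0 and 6.58 against 0 and 0.

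Of the other genes named by size of decrease, CEP250, a centrosome linker protein, had 25.2 and 24.6 against 80.1 and 170 (log2 difference −2.19, SE 0.42, limma adjusted p = 0.012), and without NUP93-KO replicate 2 it missed the threshold (0.16). ZBTB22 had 0.935 and 0.823 against 43.6 and 74.6 (−4.95, SE 0.77, limma adjusted p = 0.0020), and EHMT2, a histone H3 lysine 9 methyltransferase, had 0 and 18.3 against 211 and 51.4 (−4.59, SE 1.03, limma adjusted p = 0.035). Both genes lie in the major histocompatibility region of chromosome 6, of which annotations hold alternative copies, so their reads may have been divided between copies. EHMT2 missed the threshold without EXOSC5-KO replicate 1 (0.25) and without NUP93-KO replicate 1 (0.19). SOX9, named after its values were seen, had 5.62 and 6.59 against 31.5 and 35.9 (−2.29, SE 0.40, limma adjusted p = 0.0049).

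The genes of each direction were then followed in the untreated cells. Without drug, 35 genes were higher in EXOSC5-KO than in NUP93-KO (0.283%) and 2 were lower (0.0161%). Of these 37, 22 were also called under triptolide, 21 in the same direction and CEP250 in the opposite one. The split without drug turned with the scale and with 1 library: it was 210 higher and 225 lower when libraries were set to the same total, 191 and 306 after median-of-ratios scaling, 28 and 254 with the same mitochondrial sum, and 12 and 17 without EXOSC5-KO untreated replicate 1. Without EXOSC5-KO untreated replicate 2 it was 10 and 4, and without NUP93-KO untreated replicate 1 it was 21 and 4. Of the 86 genes higher under triptolide, 84 were above 0 without drug, where 70.4% of all genes were, and 21 passed the test there. Their median log2 difference was 1.88 under triptolide and 0.95 without drug. Of the 29 lower genes, 11 were below 0 without drug and none of these 11 was called. CEP250, another of the 29, was called there in the opposite direction (log2 difference 2.47, limma adjusted p = 0.0094). The 29 lower genes had a median of −1.74 under triptolide and 0.04 without drug. The median of all genes was −0.04 and 0.15. The treated differences chose these genes, so their treated medians are larger by selection, and the untreated libraries entered the calls through the shared estimate of spread only. Over all 12386 genes the treated and untreated differences correlated at r = 0.357 (Spearman 0.373), across genes, which are not independent, in cells of the same transfected pools.

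Whether a response to triptolide itself differed between the knockouts was tested directly. The test of this difference called 2 genes (0.0161%), both with the lower response in EXOSC5-KO. CCN1 fell in both knockouts, whereas CEP250 fell in EXOSC5-KO and rose in NUP93-KO. At an unadjusted limma p under 0.05 there were 138 genes upward and 375 downward. CCN1 stood at 0.71% of its untreated level in EXOSC5-KO and at 3.44% in NUP93-KO (difference of log2 responses −2.27, limma adjusted p = 0.018). CEP250 stood at 10.3% in EXOSC5-KO and at 294% in NUP93-KO (−4.66, limma adjusted p = 0.0028). For CEP250 the untreated levels were 215 and 269 in EXOSC5-KO but 44.1 and 41.1 in NUP93-KO, while NONT held 246 and 115 without drug and 33.1 and 58.7 under triptolide. The difference for MYC (−2.45, limma adjusted p = 0.089) and for IER5L (3.18, limma adjusted p = 0.089) did not pass. All genes had a median difference of −0.17. The CCN1 call was lost without EXOSC5-KO untreated replicate 2 (0.059), without NUP93-KO untreated replicate 1 (0.097) and without the low-value filter (0.069). Neither call held after any of the 3 other scalings (0.057 to 0.10) or without the trend (0.10 for CEP250 and 0.21 for CCN1).

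**Figure D3:**
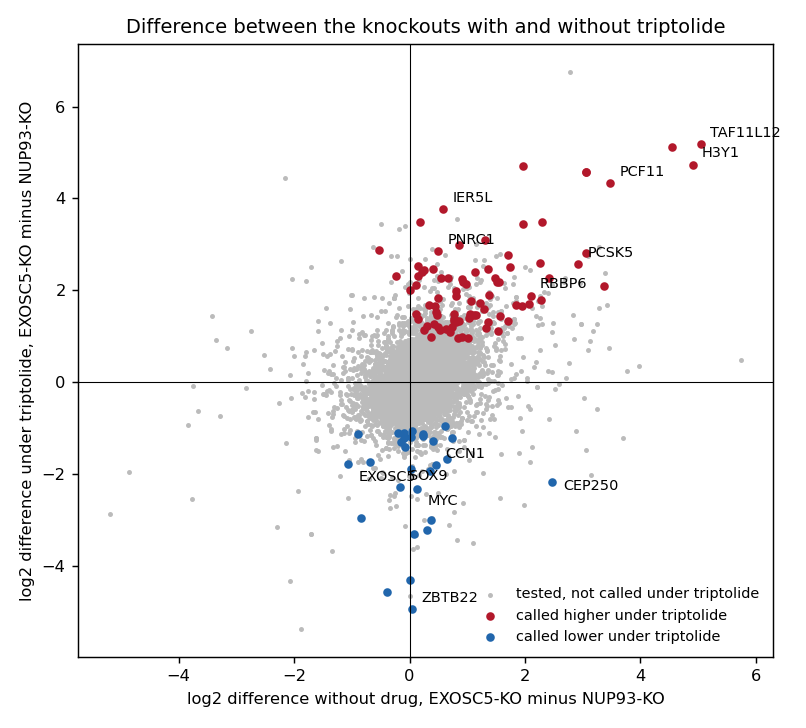
Log2 difference, EXOSC5-KO minus NUP93-KO, without drug (horizontal) and under triptolide (vertical) for the 12386 genes tested. Of the 86 genes called higher under triptolide (red), 84 lie to the right of 0, whereas the 29 called lower (blue) are spread about 0, 11 of them to the left.

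The NONT libraries under triptolide entered the calls through the shared estimate of spread. They lay at or below both knockouts for 11284 of the 12386 genes tested, so that NONT was nearer to whichever knockout was lower for nearly all genes (96.9% of those above 0 and 96.7% of those below 0), and nearness says nothing of the called genes. The higher genes had a median of 2.12 in EXOSC5-KO minus NONT and 0.28 in NUP93-KO minus NONT, and the lower genes −0.10 and 1.28. All genes had 0.65 and 0.67. These paired values share the NONT libraries, and the gap within each pair is the difference that chose the genes. As a share of the untreated level, the higher genes kept a median of 37.1% in EXOSC5-KO, 17.8% in NUP93-KO and 17.1% in NONT, and the lower genes 8.60%, 35.1% and 8.93%.

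Differences also varied with the loss of a transcript under triptolide, as measured in NONT cells. The quintile of genes with the deepest loss in NONT (2478 genes, median response −3.55) had a median difference of 0.12 and held 40 of the 86 higher and 18 of the 29 lower calls, or 1.61% called higher against 0.694% of all and 0.726% called lower against 0.234%. In the next 3 quintiles the medians were −0.00, −0.05 and −0.09, and the quintile with the smallest loss (median response −0.79) had −0.09, with 11 higher and 4 lower calls. The same order was seen without drug, with medians of 0.20, 0.18, 0.16, 0.11 and 0.10 from the deepest to the smallest loss. Levels differed along this order, and the median of the higher group mean was 57.8 in the first quintile and 346 in the last. Among genes of the lowest tertile by level the medians were 0.14 for deep, 0.04 for middle and −0.03 for shallow loss, and among those of the highest tertile −0.02, −0.07 and −0.10.

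Genes with few exons lay higher in EXOSC5-KO. The 180 genes annotated with 1 exon had a median of 0.23, with 73.9% above 0 against 45.2% of all genes. Of these, 9 were called higher (5.00%, against 0.694% of all genes) and none lower (against 0.234%). The 429 genes with 2 exons had 0.21, with 11 called higher (2.56%) and 2 lower (0.466%). Those with 3 to 4 exons had 0.03, and genes with 5 to 8, 9 to 16 or more exons −0.05, −0.08 and −0.04. With numbered zinc finger genes left out, 179 and 416 genes with 1 and 2 exons remained, and their medians were 0.23 and 0.21. Genes with 1 or 2 exons were the higher ones within each tertile of genes by loss in NONT, with medians of 0.29 against 0.05 for deep, 0.21 against −0.05 for middle and 0.13 against −0.10 for shallow loss. They were also higher within each tertile by level, at 0.24 against 0.07, 0.26 against −0.02 and 0.12 against −0.10. The gap of 0.27 between genes with 1 or 2 exons and the rest was 0.25 to 0.28 with any treated knockout library left out and 0.27 on each other scaling. Without drug the medians were 0.31 for 1 exon and 0.20 for 2, over 0.15 for all genes. Genes with 1 exon called higher included H3Y1, IER5L, TAF11L12, SOX12, TSPYL4, EPM2AIP1, MKRN3, C11orf71 and C6orf226.

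Other properties of the transcripts went with smaller differences. From the shortest to the longest quintile of transcripts the medians ran from −0.06 to −0.00, and over quintiles of GC content from −0.05 to −0.02. Genes without the AU-rich nonamer ATTTATTTA (sense strand only) in the annotated region after the stop codon had −0.04, the 735 with 1 copy −0.02 and the 187 with 2 or more −0.02. Of genes with 1 copy 11 were called higher (1.5%, against 0.694% of all genes) and 2 lower (0.272%, against 0.234%). Of those with 2 or more none was called, where 0.928% of all genes were called in either direction. In 187 genes, none cannot be told from that share. Near the guide sites, none of the 56 other genes tested within 2 Mb of the EXOSC5 cut and none of the 35 within 2 Mb of the NUP93 cut were called, and their medians were −0.02 and 0.00.

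**Figure D4:**
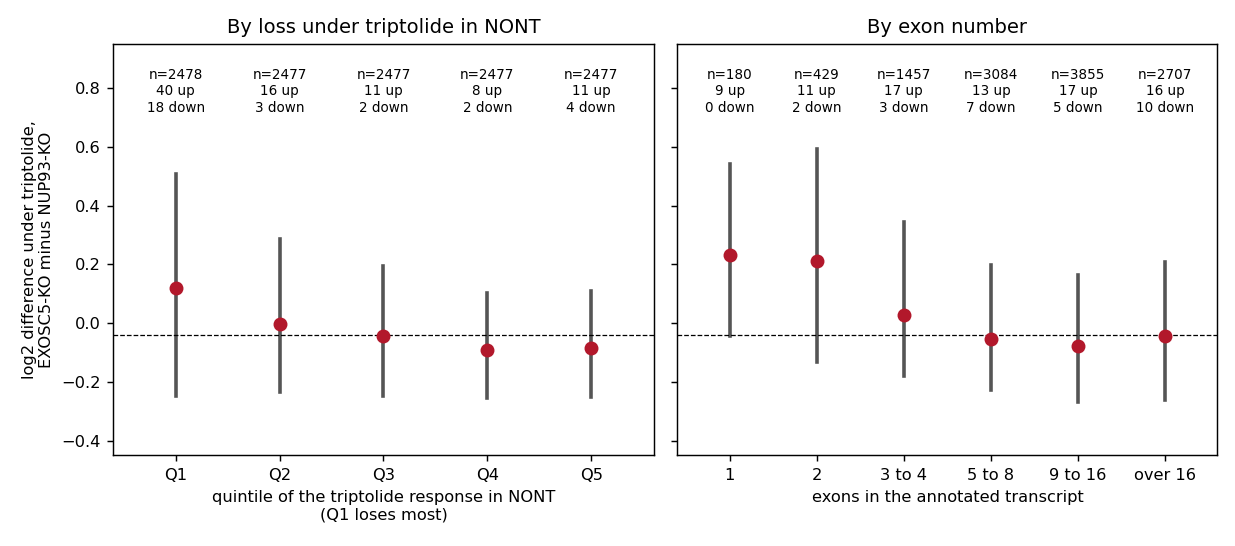
Median (points) and interquartile range (bars) of the log2 difference, EXOSC5-KO minus NUP93-KO under triptolide, by quintiles of the response in NONT (left, deepest loss first) and by exon number (right). Numbers give genes, calls higher (up) and calls lower (down); the dashed line is the median of all genes, −0.04. Medians are above it for the deepest loss (0.12) and for 1 or 2 exons (0.23 and 0.21).

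Among gene groups, cell division genes lay lower in EXOSC5-KO. All 27 mitosis genes tested lay below 0 (median −0.38, range −1.18 to −0.10), where 54.8% of all genes did, and 2 were called, against 0.234% of all genes called lower: CENPF, a kinetochore protein (257 and 213 against 470 and 600, log2 difference −1.18, SE 0.28, limma adjusted p = 0.0498), and DEPDC1B, a mitotic entry factor (136 and 150 against 297 and 327, −1.12, SE 0.26, limma adjusted p = 0.041). Neither call held without any 1 of the 4 treated knockout libraries (limma adjusted p 0.064 to 0.27 for CENPF, 0.13 to 0.23 for DEPDC1B). Summed, the 27 genes reached 15891 and 15905 in EXOSC5-KO and 20856 and 22073 in NUP93-KO, and without drug 24 of 27 were below 0 (median −0.23), where 29.6% of all genes were. The proliferation marker MKI67, which is outside the lists, had 353 and 436 against 790 and 1029 (−1.20, SE 0.28, limma adjusted p = 0.047), and it too lost the call without each of these libraries (0.053 to 0.27). Of 30 DNA replication genes 26 lay below 0 (median −0.28) and none was called, MCM7, the most abundant, having 3155 and 2997 against 3504 and 3760. Relative to the median of all genes, mitosis genes lay at −0.44 to −0.32 and DNA replication genes at −0.25 to −0.22 over 19 alternative settings.

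Zinc finger genes were shifted the other way. Of 274 numbered ZNF genes, many of which encode KRAB-type repressors, 191 lay above 0 (median 0.28), 7 were called higher (2.55%, against 0.694% of all genes and 1.61% of the quintile with the deepest loss in NONT) and none lower. ZNF514 had 50.2 and 48.2 against 3.12 and 4.18 (log2 difference 3.44, SE 0.63, limma adjusted p = 0.0074), and ZNF260 had 43.4 and 101 against 13.8 and 12.02 (2.28, SE 0.53, limma adjusted p = 0.043), a call lost without EXOSC5-KO replicate 2 and without either NUP93-KO replicate (0.073 to 0.30). Without drug 234 of the 274 were above 0 (median 0.33). Over the alternative settings the list lay 0.19 to 0.37 above the median of all genes.

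Immediate early genes were split. Of 23 tested of 45 listed, 2 were called higher and 3 lower, against 0.694% and 0.234% of all genes, with a median of −0.14. The median was 0.58 over the members with a mean of at least 50, the opposite sign. The largest differences were those of PPP1R15A and MYC given above, with CCN1 the other lower one. FOSL2, an AP-1 subunit (289 and 250 against 101 and 143, log2 difference 1.15), and IER2 (55.7 and 64.0 against 20.8 and 21.4, 1.46) were higher, with limma adjusted p-values of 0.022 and 0.011. FOSL2 missed the threshold in 3 of the 4 fits without a treated knockout library (0.062 to 0.23), and IER2 in 2 (0.098 without EXOSC5-KO replicate 2 and 0.0503 without NUP93-KO replicate 1). The immediate early genes kept a median of 3.5% of their untreated level in EXOSC5-KO and 4.7% in NUP93-KO. PPP1R15A was also the 1 gene called among 15 of the integrated stress response (median −0.12).

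Genes for the exosome, the nuclear pore and mRNA decay held few calls, where 0.928% of all genes were called in either direction. Lists of 9 to 32 genes are too short to tell none or 1 call from that share. Among 12 exosome subunits (median −0.17) EXOSC5 alone was called, and the others lay between −0.37 and 0.71, EXOSC4 (224 and 238 against 148 and 134) being the highest (limma adjusted p = 0.23). None of 32 nuclear pore genes (median −0.17, NUP188 at 2623 and 2526 against 2449 and 2607), 16 exosome cofactors (−0.04, HBS1L 887 and 1104 against 1339 and 1423), 20 mRNA export genes (−0.11, ALYREF 1915 and 1818 against 2031 and 2128) or 27 importins and exportins (−0.14, RAN 7606 and 7509 against 9315 and 9446) was called. Nor was any of 16 deadenylation genes (0.10, CNOT1 1096 and 962 against 1481 and 1519), 18 decapping and XRN genes (−0.20, XRN2 1984 and 1993 against 2323 and 2303) or 14 nonsense-mediated decay genes (−0.14, SMG5 2003 and 2049 against 2279 and 2488). Of 9 tested genes for AU-rich element binding proteins (−0.20), ZFP36L2, which recruits deadenylases, was lower (11.2 and 8.24 against 21.9 and 28.9, log2 difference −1.30, limma adjusted p = 0.047), a call lost without any 1 of the treated knockout libraries (0.071 to 0.32).

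The remaining groups held 1 called gene, where 0.928% of all genes were called in either direction. It was PLK2, among 25 p53 targets, of which 18 lay above 0 (median 0.17). CDKN1A, the p53-induced cell cycle inhibitor, is outside the rules for named genes. Its values were 2265 and 2214 against 1258 and 1283, just outside the threshold (log2 difference 0.82, limma adjusted p = 0.051). Cytosolic ribosomal protein genes (79, median −0.12, RPLP0 at 36209 and 36014 against 33742 and 35601), nuclear respiratory chain genes (78, −0.10, ATP5F1B 7422 and 7551 against 8201 and 9221), proteasome genes (40, −0.09, PSMD2 14184 and 13774 against 15420 and 16223) and mitochondrial ribosomal protein genes (76, −0.03, MRPL51 1442 and 1301 against 1355 and 1424) lay within 0.10 of the median of all genes. Collagens (26, median −0.27, COL1A1 20131 and 19848 against 17701 and 20459) and heat shock chaperones (18, −0.26, HSP90AB1 41290 and 40377 against 48448 and 51450) lay below it. Above it by their medians were the 13 mitochondrially encoded mRNAs (0.22, MT-CO1 25385 and 28728 against 23495 and 22189) and replication-dependent histones (15, median 0.33, 10 above 0 and 5 below). Most histone mRNAs of this kind lack the poly(A) tail used to select RNA here. The most abundant of the 15, H2BC12, went the other way (997 and 1077 against 1327 and 1409). Summed, the 15 were close, at 3092 and 3233 against 2988 and 3196. Apoptosis regulators (30, 0.04, CYCS 3609 and 3319 against 4253 and 4930), sterol synthesis (19, 0.06), contractile genes (20, 0.09, ACTB 85426 and 84956 against 78835 and 80901) and SR splicing factors (13, 0.01, SRSF2 1421 and 1422 against 1670 and 1746) held no call. Of 5 further genes the study knocked out, 3 were tested and DTL was the most abundant (130 and 114 against 100 and 88.4, 0.37, limma adjusted p = 0.69).

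**Figure D5:**
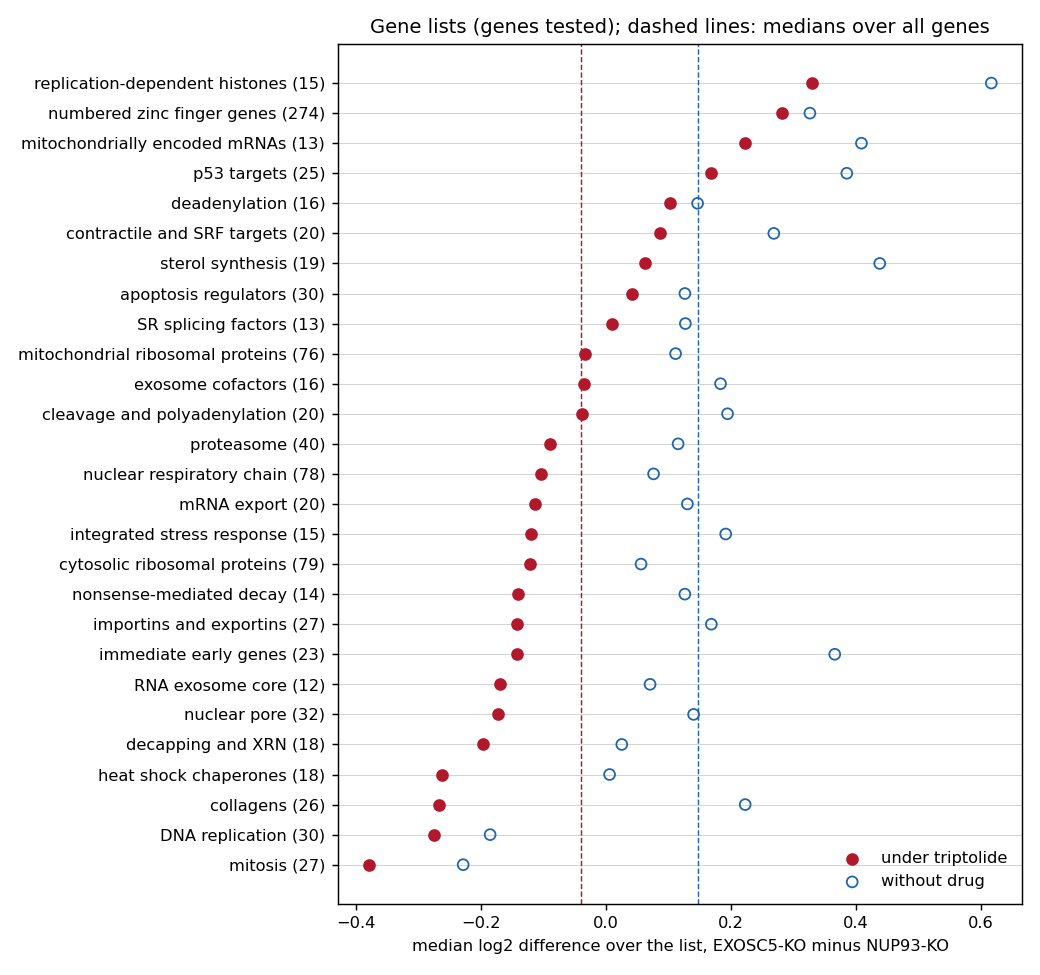
Median log2 difference, EXOSC5-KO minus NUP93-KO, over each gene list with at least 10 genes tested (number in parentheses), under triptolide (filled) and without drug (open). Dashed lines are the medians of all genes, −0.04 and 0.15. Mitosis and DNA replication genes lie lowest in both, and histone, zinc finger and mitochondrially encoded genes highest under triptolide.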

How the data were processed

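Polyadenylated RNA of 12 U2OS libraries had received ERCC spike-in RNAs, dosed by cell number, and had been sequenced with strand-specific paired reads, pseudoaligned with kallisto (0.46.1 in the submitters' processing notes), summed per gene with tximport and divided by DESeq2 size factors estimated on ERCC transcripts alone, for protein-coding genes. The values the authors deposited are thus a spike-in-normalised signal per gene, called normalised read count here, a scale intended to track mRNA per cell. An error in cell number or spike-in volume moves all genes of a library together. Only 16.2% to 23.8% of low values were whole multiples of 1 read (within 0.01), so counts could not be rebuilt and count models were set aside.

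Of 22379 genes (92 ERCC rows excluded), 12386 averaged at least 10 in the 4 treated knockout libraries and were tested. Symbols, exons and coordinates came from GENCODE release 44 (GRCh38), in which 674 tested IDs had no match. On log2(value + 1), which understates changes of low genes, limma 3.58.1 (R 4.3.3, lmFit and eBayes with trend) was fitted to 12 libraries as 6 group means, two-sided, with Benjamini-Hochberg adjustment over all genes tested and a threshold of 0.05. Simulated data of the same genes gave 5 false calls. Features and gene lists are described by counts and medians with no test. Exact permutation tests used SciPy 1.17.1. Identical rows were left out of the named genes.

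The genes named were EXOSC5 and NUP93, the study's short-lived MYC, WEE1, JUN and MCL1, up to 8 called genes per direction with the largest difference and a mean of at least 50, genes called for a difference in response, up to 2 called genes or else the most abundant gene per list (some single genes are not reported here), and called genes within 2 Mb of a guide site. Some others are marked as chosen after their values were seen. Further genes, MKI67, CDKN1A, CLP1, EXOSC4, ZSCAN4, TRIM43B and PRAMEF12 among them, carry no such mark and were not chosen by these rules either. The comparison, its members and the lists were chosen with earlier results of these data known. Alternatives were other pseudocounts (0.5 and 5), filters (none, or a mean of 50), no trend, fits on 8 or 4 libraries, 3 other scalings, a replicate block, and leaving out each of the 8 knockout libraries.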

Additional observations from a re-analysis of the deposited data

Results flagged for a closer look

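The response to triptolide differed between EXOSC5-KO and NUP93-KO for 2 genes by a test of the difference itself. CEP250 had a difference of log2 responses of −4.66 and CCN1 of −2.27, both lower in EXOSC5-KO in each of the 4 treated against untreated pairings of libraries.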

How the results depend on the processing

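Counts under triptolide depended most on the scale and on the libraries that set the spread. The genes higher in EXOSC5-KO numbered 234 in a fit on the 8 knockout libraries, 645 with the same total and 499 with median-of-ratios scaling, and 45 to 92 with 1 knockout library left out. Lower genes numbered 12 without the low-value filter, 16 without the trend, 137 on the 8 knockout libraries, 64 on the 4 treated ones, 288 with the same total, 508 with median of ratios and 357 with the same mitochondrial sum, and 15 to 40 with a library left out. Without drug, the 37 calls became 247 on the 8 knockout libraries, 435 with the same total, 497 with median of ratios and 282 with the same mitochondrial sum, and 14 to 43 with a library left out. The differences in response, 2 as reported, numbered 8 with a mean of at least 50 and 5 on the 8 knockout libraries. Both of these sets held the 2. Neither CEP250 nor CCN1 was among the 1 called without the trend, the 7 with the same total or the 7 with median of ratios. With the same mitochondrial sum there were 0. With a library left out there were 2 to 26, CEP250 always among them. CCN1 was among them except without EXOSC5-KO untreated replicate 2 and without NUP93-KO untreated replicate 1. The cause was not tested. The median difference was 0.043 with the same total and −0.28 with the same mitochondrial sum, and −0.083 to −0.0024 with a library left out. The ratio of totals was 0.800 with the same mitochondrial sum and 0.912 to 0.975 with a library left out. No called gene that is named changed direction in any alternative, and 17 of the 86 higher and 2 of the 29 lower genes passed in every alternative in which they were tested. Replicate numbers are only shared numbers here: deviations of same-numbered libraries correlated at −0.06 to 0.04 over pairs of groups, and a replicate block gave 84 higher and 27 lower genes under triptolide, 35 without drug and 2 differences in response. Estimates rest on 2 libraries a group, at about 8600000 to 9800000 reads.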
